A study of Mus musculus with 44 samples.

Results

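The comparison set livers of mice lacking Mlkl (Mlkl-/-, called MLKL KO in the labels) against livers of mice lacking Ripk3 (Ripk3-/-), both on the low-fat diet without choline (CD-LFD). It rests on 7 of the 44 liver RNA-seq libraries of the series, 4 from Mlkl knockout and 3 from Ripk3 knockout mice, chosen by genotype and diet from the column names and labels, with it known from these data that both groups share 1 clock phase by the ratio of Arntl to Dbp. All mice began their diet at 2 months of age and stayed on it for 6 months. The series also holds wild-type (WT) mice, and the same 3 genotypes on control diet or on the high-fat one without choline (CD-HFD). Of these, the 6 WT livers on CD-LFD are given for reference, and the genotype pair on control diet (6 Mlkl and 6 Ripk3 knockout libraries) and on CD-HFD (3 and 4) supplied separate libraries in which the same contrast could be taken. The labels name no conditional allele or Cre driver. How each knockout was made, the strain background, sex and litter are not given in the sources used here, so strain or litter and genotype cannot be told apart.

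Necroptosis is a lytic form of programmed cell death. Death receptors such as the TNF receptor bring RIPK1 and RIPK3 together, the kinase RIPK3 phosphorylates the pseudokinase MLKL, and MLKL then oligomerises and breaches the plasma membrane. Both knockouts therefore block the same pathway, at its kinase and at its effector, and the contrast between them asks whether livers without the kinase differ from livers without the effector when choline is lacking, a diet that impairs phosphatidylcholine synthesis and lipid export and leads to fatty liver. RIPK3 also has kinase and scaffold roles outside necroptosis, which MLKL does not share.

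The 7 libraries held 4676294 to 12471844 counts in total and 18337 to 21568 detected genes, and no library of a group repeated another (chi-square per degree of freedom of 9.66 to 28.6 over genes). Values below are CPM, a gene's count relative to its library's TMM-scaled total, and log2 differences are Mlkl knockout minus Ripk3 knockout. A gene is termed called where edgeR's quasi-likelihood test gave a Benjamini-Hochberg adjusted p under 0.05 over the 14862 genes tested. Mlkl knockout replicate 4 stood apart by Lars2, a mitochondrial leucyl-tRNA synthetase gene, at 5462 CPM against 109 to 134 in the other 3, and with it by Mir6236 (462 against 2.57 to 10.1 CPM) and Gm15564 (84.7 against 1.64 to 3.53 CPM). Ripk3 knockout replicate 3 stood apart by Xist at 10.9 CPM, against at most 2.10 in the other 43 libraries of the series, together with Ddx3y, from the Y chromosome, at 46.4 CPM, within the 29.5 to 123 of the rest. Results that rest on either library are given with and without it. The liver identity of the samples was plain, with the 15 hepatocyte identity genes summing to 77279 to 121005 CPM, while of the 15 counted genes of fat, muscle, pancreas and gut, 6 were at 0 in all 7 libraries (Prss2, Pnlip, Ckm, Plin1, Retn and Adipoq). Those 15 genes nonetheless summed to 2111 to 3056 CPM in Mlkl knockout and 2286 to 2961 CPM in Ripk3 knockout livers, through the other 9. Car3 is 1 of these 9. In WT CD-LFD livers it stood at 2675 to 5060 CPM by itself, where the sum, without TMM scaling, was 3411 to 5077 CPM.

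The clock ratio was part of how the groups were chosen, so its values are a description with no test. The log2 ratio of Arntl, the activator that peaks opposite to its targets, to Dbp, an output gene, was -5.96, -6.34, -6.58 and -7.43 in the Mlkl knockout livers and -6.28, -7.61 and -6.67 in the Ripk3 knockout livers. Over all 44 libraries the widest gap in this ratio lay between -3.73 and -2.69, with 33 libraries below it. All 7 were among these, and none of the 6 WT CD-LFD livers, which ranged from -2.69 to -0.28. The means were -6.58 ± 0.62 (SD, n = 4) and -6.86 ± 0.68 (SD, n = 3), a difference of 0.28. WT livers are therefore given as levels only, with no test, since their clock position and their genotype cannot be told apart.

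The targeted genes were the first check of the labels. Ripk3 stood at 1.87, 1.94, 1.76 and 2.08 CPM in the Mlkl knockout livers and at 0, 0 and 0.0755 CPM in the Ripk3 knockout livers, which held 0 to 1 count each. The groups did not overlap. Against a floor of 3 counts per library (0.632 CPM in the Ripk3 knockout library where 3 counts weigh most), Ripk3 was at least 3.03-fold higher in the Mlkl knockouts (adjusted p = 0.0193), and WT livers held 1.12 to 3.96 CPM. At these low counts the call was lost without any 1 of the Ripk3 knockout libraries (adjusted p of 0.127 to 0.393) and when scaled by library size alone (0.0613). Mlkl stood at 4.15, 2.98, 3.37 and 3.43 CPM in the Mlkl knockout livers and at 15.2, 9.49 and 12.5 CPM in the Ripk3 knockout livers. Its transcript was thus lower but still counted in every Mlkl knockout library, with a log2 difference of -1.82 ± 0.31 (SE) and an adjusted p of 0.00216. Without both libraries that stood apart the difference was -1.80 and was not called (adjusted p = 0.0809). WT livers held 9.85 to 14.5 CPM of Mlkl, overlapping the Ripk3 knockout range and none of the Mlkl knockout values. Counts are summed over the whole gene, so they do not show which exons the remaining Mlkl reads cover.

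Across the transcriptome the 2 knockouts differed in 9 genes, 0.0606% of those tested, of which 5 were higher and 4 lower in Mlkl knockout livers. DESeq2 called 10, and scaling by library size alone gave 4 higher and 5 lower. Without Ripk3 knockout replicate 2, 8 genes were called, 2 higher and 6 lower, of which 6 were among the 9. Beside Ripk3 and Mlkl, the 9 genes of the main test included Cebpe, Ppp1r3e, Psmb5 and the non-coding transcript Gm43305, all higher. Nuggc and the processed pseudogene Gm3375 were among the lower ones. Outside these 9, the effect that the data allow was small for most genes. The estimated difference lay within 2-fold for 95.6% of genes, and its 95% confidence interval lay within 2-fold for 9339 genes (62.8%) and within 4-fold for 13602 (91.5%). At an unadjusted p under 0.05, 701 genes (4.72%) passed, 319 higher (2.15%) and 382 lower (2.57%). Scaling by library size alone moved the median of all genes from -0.01 to -0.11. Without both libraries that stood apart, 4 genes were called, among them Gm3375, Gm43305 and Cebpe. Neither targeted gene was called there (adjusted p of 0.0809 for Mlkl and 0.529 for Ripk3). Psmb5 (0.0690), Ppp1r3e (0.0976) and Nuggc (0.421) were not called either, and all these log2 differences kept their sign.

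**Figure D1:**
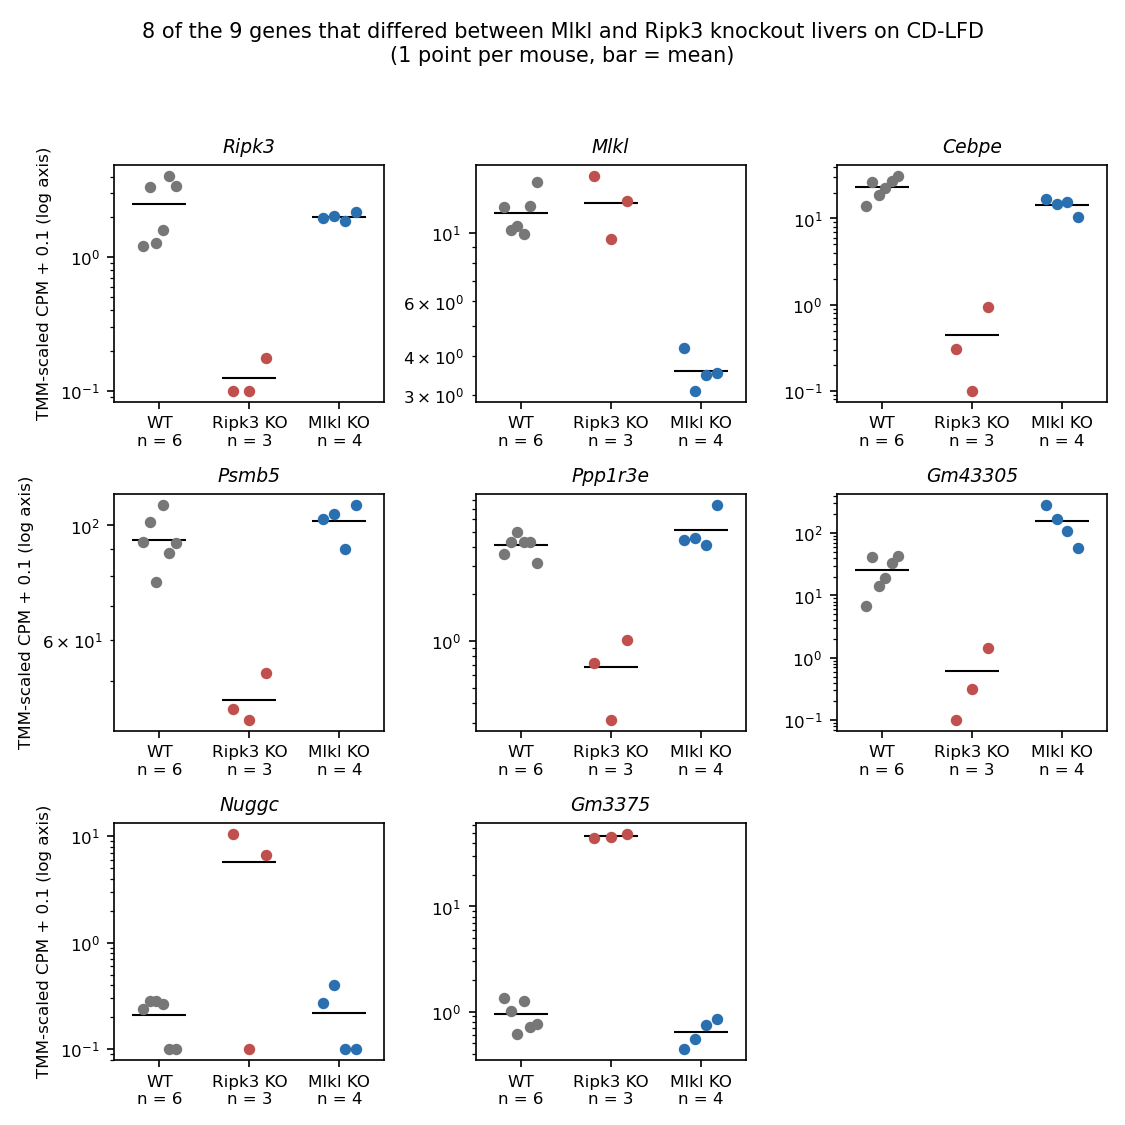
Levels of 8 of the 9 called genes in each CD-LFD liver, as TMM-scaled CPM plus 0.1 on a log axis, with 1 point per mouse and the group mean as a bar, for WT (grey, n = 6), Ripk3 knockout (red, n = 3) and Mlkl knockout (blue, n = 4). Cebpe, Psmb5 and Ppp1r3e were low in Ripk3 knockout livers alone, Gm3375 was high there alone, and Nuggc was high in 2 of the 3.

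Cebpe encodes C/EBP epsilon, a transcription factor of granulocyte maturation. It stood at 16.5, 14.8, 15.4 and 10.3 CPM in Mlkl knockout livers and at 0.208, 0 and 0.831 CPM in Ripk3 knockout livers. Its log2 difference was 4.83 ± 0.68 (SE; adjusted p = 7.72e-05), and WT livers, at 13.8 to 31.2 CPM, were on the Mlkl knockout side. Psmb5, which encodes the catalytic beta subunit of the proteasome with chymotrypsin-like activity, stood at 103, 105, 89.8 and 109 CPM against 44.2, 42.0 and 51.8 CPM. That is a log2 difference of 1.15 ± 0.21 (SE; adjusted p = 0.00338), with WT at 77.6 to 109 CPM. Ppp1r3e, a subunit that directs protein phosphatase 1 to glycogen, stood at 4.33, 4.47, 4.01 and 7.30 CPM against 0.625, 0.211 and 0.906 CPM, a log2 difference of 2.90 ± 0.51 (SE; adjusted p = 0.00311), with WT at 3.06 to 4.87 CPM. In these 3 genes each Mlkl knockout value exceeded each Ripk3 knockout value, and the WT and Mlkl knockout ranges overlapped. Psmb5 was no longer called without Ripk3 knockout replicate 1 (adjusted p = 0.0694) or replicate 2 (0.0745), nor Ppp1r3e without Ripk3 knockout replicate 2 (0.0651) or when the 7 libraries alone were fitted (0.0557), while both log2 differences kept their sign.

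Gm43305, Gm3375 and Nuggc fell outside the rule for naming genes and were chosen after their values were seen. Gm43305 varied most among the livers that held it, with 283, 171, 108 and 57.5 CPM in Mlkl knockout livers, 0, 0.211 and 1.36 CPM in Ripk3 knockout livers, and 6.70 to 42.8 CPM in WT, between both knockouts. Gm3375 stood at 44.6, 45.5 and 48.6 CPM in Ripk3 knockout livers against 0.339 to 0.745 CPM in Mlkl knockout and 0.517 to 1.26 CPM in WT livers. Reads of a processed pseudogene can be split with its parent gene, so its level is uncertain. Nuggc, a nuclear GTPase gene of germinal centre B cells, stood at 10.4 and 6.65 CPM in Ripk3 knockout replicates 1 and 3 but at 0 in replicate 2, against 0 to 0.298 CPM in Mlkl knockouts, so the groups overlapped. Its call was lost in 8 of 15 alternative analyses, among them DESeq2 (adjusted p = 0.359).

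The 9 genes were not spread over the genome. Chromosome 14, which carries Ripk3, held 7 of them, Mlkl lies on chromosome 8, and Gm3375 on chromosome 7. In the order of the 507 tested genes of chromosome 14, Gm43305 lay 54 genes before Ripk3, Psmb5 44, Cebpe 39 and Ppp1r3e 36 before it, and Nuggc 76 after. Among the 10 tested genes nearest to Ripk3 none was called, and their log2 differences ran from -0.76 (Nfatc4) to 0.10 (Cideb). At an unadjusted p under 0.05, 42 of 507 genes of chromosome 14 passed (8.28%), against 3.13% to 6.59% on the other 19 chromosomes with the Y chromosome and mitochondrial genome left out. These 42 include the 7 called genes, so the share is not separate from the count above, and the other 35 were not called. With 25, 50, 100 and 150 tested genes to each side of Ripk3, 3 of 50, 10 of 100, 17 of 200 and 32 of 300 genes passed (10.7% in the widest window), and beyond 150 it was 9 of 206 (4.37%). In turn, 0, 4, 6 and 6 of those in the windows were called genes. Around Mlkl, 5 of 50, 10 of 100 and 16 of 200 passed in the windows of 25, 50 and 100 genes to each side, shares no lower than those around Ripk3 for the first 2 windows. No neighbour of Mlkl in these windows was called, against 6 within 100 genes of Ripk3. Of the 5 tested neighbours to each side of Mlkl, Glg1, a Golgi glycoprotein gene, had the lowest unadjusted p (0.0264), with a log2 difference of -0.33. Strain background or a passenger segment near the targeted allele, and the knockout itself, cannot be told apart in this design.

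**Figure D2:**
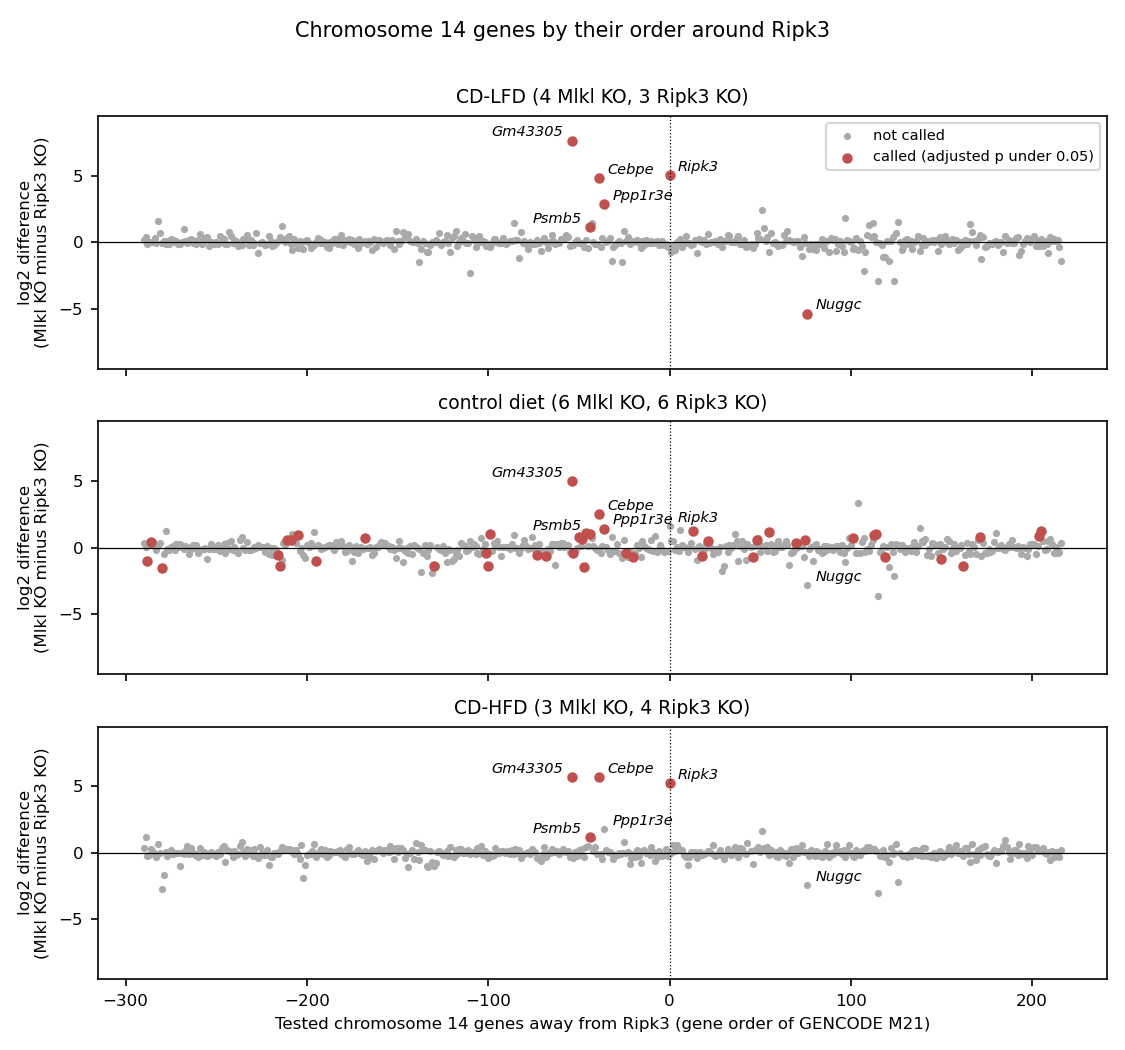
Log2 difference (Mlkl knockout minus Ripk3 knockout) of tested chromosome 14 genes against their position in gene order from Ripk3, for CD-LFD, control diet and CD-HFD, with called genes in red and 1 gene called on CD-LFD not drawn. Gm43305, Cebpe, Ppp1r3e and Psmb5 lie above 0, and Nuggc below 0, in all 3 panels.

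The same contrast in other mice gave the same directions. All 9 genes had the CD-LFD sign both on control diet and on CD-HFD, whose livers share no library with the CD-LFD comparison. On control diet 6 of the 9 were called, where 1045 genes (7.03%) were called in all, 569 higher and 476 lower (844 and 346 when scaled by library size alone). That count was 155 when the 2 control-diet groups alone were fitted. It was 513 and 478 without Ripk3 knockout control replicates 1 and 2, 543, 688 and 679 without Mlkl knockout control replicates 1, 2 and 3, and 1803 without Mlkl knockout control replicate 6. On CD-HFD 5 of the 9 were called, and they were the only 5 called there (0.0336%). The CD-HFD count was 12 when its 2 groups alone were fitted, 9 with DESeq2 and 3 without Mlkl knockout CD-HFD replicate 2. Cebpe had log2 differences of 2.51 on control diet and 5.69 on CD-HFD, Psmb5 of 0.98 and 1.19, and Gm3375 of -5.84 and -5.71. In both diets 1 library went against its label by its targeted gene. The control-diet library labelled Ripk3 knockout replicate 5 held 1.26 CPM of Ripk3, within the 0.729 to 1.76 CPM of the Mlkl knockouts, and 4.47 CPM of Cebpe. That library also held 8.10 CPM of Mlkl, against at most 3.04 CPM in the Mlkl knockouts, and 12 counts of Nuggc against 0 to 1. Without it the log2 difference on control diet was 5.48 for Cebpe and 2.84 in place of 1.60 for Ripk3, while Mlkl went from -0.95 (adjusted p = 0.0274) to -0.65 (adjusted p = 0.146) and Nuggc from -2.82 to -1.34. The CD-HFD library labelled Mlkl knockout replicate 1 held 12.5 CPM of Mlkl, against 2.80 and 4.83 CPM in the other 2. Without it Mlkl differed by -2.04 on CD-HFD (adjusted p = 0.000833) in place of -1.26 (adjusted p = 0.321).

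Signs were also compared among genes that were not called. Of the 35 such genes of chromosome 14 with an unadjusted p under 0.05 on CD-LFD, 27 (77.1%) had the same sign on control diet and 28 (80.0%) on CD-HFD. On the remaining chromosomes the shares were 390 (59.4%) and 396 (60.3%) of 657 genes, and over all tested genes 53.5% and 54.5%. These shares are descriptions, since neighbouring genes are not independent.

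Of the necroptosis and cell death machinery (20 genes, all tested), Ripk3 and Mlkl were the only members called, and the list median was 0.00 on the log2 scale, against -0.01 over all tested genes. Upstream, Ripk1, the adaptor kinase, differed by 0.04, Tnfrsf1a, the TNF receptor, by -0.34, and Zbp1, a nucleic acid sensor that engages RIPK3, by -0.12. Among the brakes on the pathway, Casp8, the protease that cleaves RIPK1 and RIPK3, differed by 0.00, and Cflar, its catalytically inactive partner, by 0.59 (unadjusted p = 0.0144, adjusted p = 0.927). Bak1, a pore-forming gene of intrinsic apoptosis, differed by -0.55 (unadjusted p = 0.0219). The 13 inflammasome and pyroptosis genes had a median of -0.06 and none with an unadjusted p under 0.05. The widest differences among them were those of the cytokine Il1b (-0.78) and the protease Casp4 (-0.68).

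Gene lists for liver function, cell types and stress were taken in the same way. Over 51 lists, 754 of 809 genes were tested, 2 were called (Ripk3 and Mlkl), and 40 (5.31%) had an unadjusted p under 0.05, 21 higher and 19 lower, beside 4.72% of all genes. With all 7 libraries list medians ran from -1.05 to 0.56, and 41 of 51 lay within 0.25 of 0. Without Ripk3 knockout replicate 3 some lay further from 0 and some, given below, nearer. The MHC class II median went from 0.02 to 0.60, and that of T, NK and cytotoxic lymphocyte genes from 0.18 to 0.48. Stellate cell and myofibroblast genes went from 0.03 to 0.34. Monocyte and neutrophil genes went from -0.19 to 0.29, and fibrosis and matrix genes from -0.18 to 0.34. Of the metabolism that a choline-deficient diet strains, the 24 genes of phosphatidylcholine, methionine and one-carbon metabolism were near-level. Their median was 0.06, with 19 within 2-fold by their 95% interval. Pemt, which makes phosphatidylcholine by methylation, differed by 0.06, and Bhmt, which spends betaine to remake methionine, by 0.04. Cept1, the last enzyme of phosphatidylcholine synthesis from CDP-choline, stood at 59.4, 67.5, 60.0 and 63.3 CPM against 47.9, 48.9 and 41.0 CPM without overlap (log2 difference 0.45, unadjusted p = 0.00244, adjusted p = 0.759). Lipid droplet genes had a median of -0.11 with 11 of 15 below 0. Without both libraries that stood apart it was -0.29, with 2 of 15 above 0. The 24 fatty acid oxidation and PPAR-alpha target genes had a median of -0.03, and of -0.20 with 7 above 0 without both. All 20 nuclear-encoded oxidative phosphorylation genes and all 20 ribosomal protein genes had intervals within 2-fold.

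**Figure D3:**
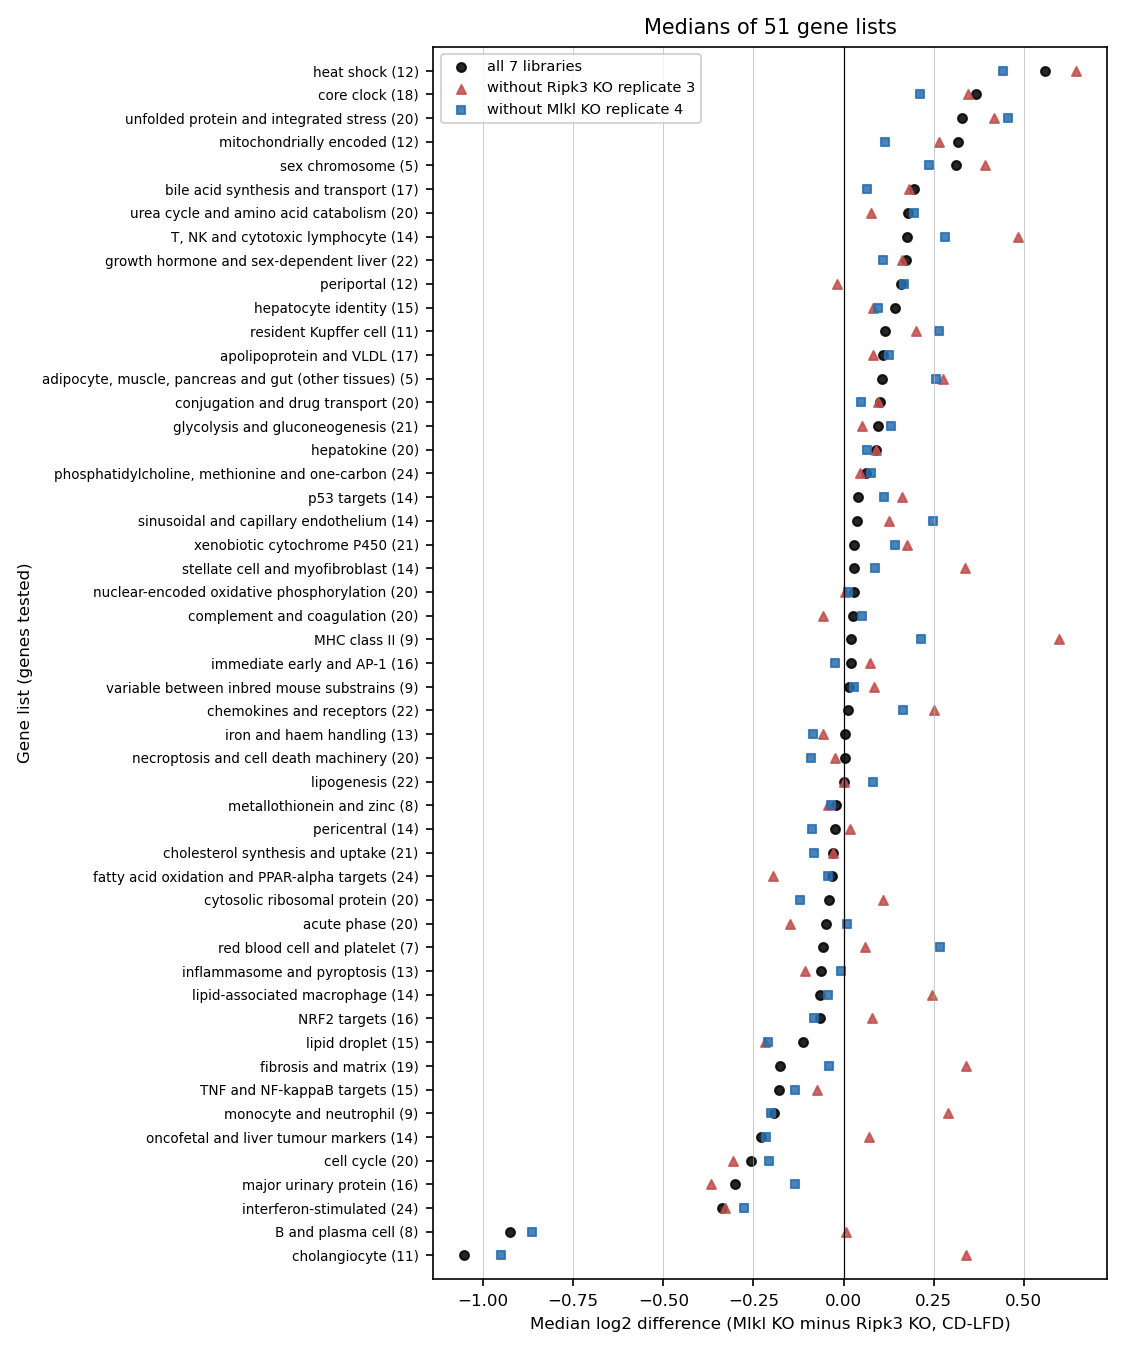
Median log2 difference (Mlkl knockout minus Ripk3 knockout, CD-LFD) of each of the 51 gene lists over its tested genes (number in brackets), with all 7 libraries (black), without Ripk3 knockout replicate 3 (red) and without Mlkl knockout replicate 4 (blue). The cholangiocyte and B cell medians lie near -1 only while Ripk3 knockout replicate 3 is included. Those of MHC class II and of fibrosis and matrix genes lie higher without it.

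The lowest medians belonged to bile duct and B cell genes, and both rested on 1 library. The 11 tested cholangiocyte markers all lay below 0 (median -1.05, 4 with an unadjusted p under 0.05). Krt19, a keratin of bile duct cells, stood at 2.71, 3.43, 2.09 and 3.87 CPM in Mlkl knockouts and at 3.12, 1.69 and 13.4 CPM in Ripk3 knockouts. Spp1, encoding osteopontin, stood at 118, 186, 98.5 and 146 CPM against 167, 48.3 and 489 CPM. Replicate 3 of the Ripk3 knockouts was the high library in each, and its summed marker level was 727 CPM, against 125 and 287 CPM in its group, 193 to 278 CPM in Mlkl knockouts and 208 to 553 CPM in WT. Without that library 8 of the 11 lay above 0, with a median of 0.34. The 8 B and plasma cell genes likewise had a median of -0.93 with all below 0, and 0.01 with 4 above 0 without it. Ighm, the immunoglobulin M heavy chain, stood at 76.2 CPM in that library and at 11.3 to 19.2 CPM in the other 6. In tissue RNA fewer cells of a type and less RNA per cell cannot be told apart.

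Heat shock genes had the highest median with all 7 libraries. All 12 tested lay above 0 (median 0.56, 5 with an unadjusted p under 0.05, none called), and 12 of 12 lay above 0 without both libraries that stood apart (median 0.50). In that last setting 2 other lists had higher medians. These were MHC class II genes (0.72, 8 of 9 above 0) and T, NK and cytotoxic lymphocyte genes (0.62, 10 of 14 above 0). Hspa8, the constitutive HSP70 chaperone, stood at 2157, 2302, 1801 and 2966 CPM in Mlkl knockouts and at 1432, 1282 and 1432 CPM in Ripk3 knockouts without overlap, a log2 difference of 0.74 ± 0.25 (SE; unadjusted p = 0.00533, adjusted p = 0.776). Hspa1b, the inducible HSP70, stood at 56.1, 56.0, 21.3 and 114 CPM against 24.6, 10.96 and 15.3 CPM, which overlap at Mlkl knockout replicate 3 (log2 difference 1.88, adjusted p = 0.948). Its near-identical neighbour Hspa1a differed by 1.13, and reads may be split between the pair, so their levels are uncertain. The co-chaperones Dnajb1 (0.72), Hsph1 (1.06) and Dnaja1 (0.67) were the other 3 with an unadjusted p under 0.05. On CD-HFD, in other mice, Hspa8 differed by 0.73 and Hspa1b by 2.04, with a list median of 0.52, and on control diet by -0.22 and -0.37, with a list median of 0.23. None of the 12 was called in either diet.

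Since these chaperones are known targets of heat shock factor, whose sites are inverted repeats of GAA, their promoters were searched for GAANNTTC and TTCNNGAA. Each of these words is its own reverse complement, so a match counts for both strands, and the words can overlap each other in longer arrays. At least 1 match lay in 8 of the 10 heat shock genes with a promoter in the RefSeq table (80.0%), against 1563 of 10926 tested genes with one (14.3%), in windows of 300 bases from 250 before to 50 after the annotated start. The promoter of Hspa1b (GRCm38.p6, chr17:34959189-34959488, minus strand) is shown since it had the widest difference of the list. Its only match is in capitals.
Hspa1b: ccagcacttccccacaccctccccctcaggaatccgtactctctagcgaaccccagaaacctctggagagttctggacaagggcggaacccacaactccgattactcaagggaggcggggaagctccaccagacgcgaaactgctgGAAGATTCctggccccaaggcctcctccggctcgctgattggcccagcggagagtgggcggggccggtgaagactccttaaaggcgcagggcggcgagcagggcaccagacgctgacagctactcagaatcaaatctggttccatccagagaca

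Of 18 core clock genes 16 lay above 0 (median 0.37), but the median was 0.21 without Mlkl knockout replicate 4, 0.15 with 11 above 0 without both libraries that stood apart, and -0.59 on control diet. Per1, a repressor of the clock loop that glucocorticoid and feeding signals also induce, stood at 131, 106, 110 and 167 CPM against 65.8, 89.0 and 44.04 CPM without overlap (log2 difference 0.96, unadjusted p = 0.00288, adjusted p = 0.759). Per2 was at 217 CPM in Mlkl knockout replicate 4, against 56.3 to 81.0 CPM in the other 6 libraries. The E-box CACGTG, which the clock activators bind and which reads the same on both strands, occurred in promoters of 5 of 16 clock genes (31.2%) and of 11.3% of tested genes with a promoter. The upstream of the 2 Per1 starts in the RefSeq table holds 1 (GRCm38.p6, chr11:69098699-69098998, plus strand), shown here in capitals as the member of this list with the lowest p.
Per1: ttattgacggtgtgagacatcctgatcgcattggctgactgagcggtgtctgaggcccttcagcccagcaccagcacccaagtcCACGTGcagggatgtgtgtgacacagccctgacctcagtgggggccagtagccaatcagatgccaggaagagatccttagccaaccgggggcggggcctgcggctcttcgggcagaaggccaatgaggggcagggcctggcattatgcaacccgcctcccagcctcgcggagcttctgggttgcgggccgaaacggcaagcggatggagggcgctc

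Of 20 unfolded protein and integrated stress response genes 18 lay above 0 (median 0.33; 0.44 without both libraries that stood apart). Herpud1, of endoplasmic reticulum degradation, stood at 703, 649, 576 and 549 CPM against 293, 409 and 242 CPM without overlap (log2 difference 0.98, unadjusted p = 0.0159, adjusted p = 0.932). Ddit4, an inhibitor of mTORC1, stood at 50.5, 38.8, 29.4 and 14.5 CPM against 13.5, 14.8 and 10.4 CPM, and overlapped at Mlkl knockout replicate 4. The 20 urea cycle and amino acid catabolism genes had a median of 0.18 with 18 above 0. Without Ripk3 knockout replicate 3 that median was 0.08 with 13 above 0, without both libraries that stood apart 0.05 with 13 above 0, and without Ripk3 knockout replicate 2 it was 0.44. Tat, tyrosine aminotransferase, stood at 2787, 3596, 2865 and 1702 CPM against 1303, 2275 and 707 CPM (log2 difference 0.94, adjusted p = 0.927), which overlap. Interferon-stimulated genes lay on the other side, with 19 of 24 below 0 and a median of -0.34. That median ran from -0.10 without Ripk3 knockout replicate 1 to -0.70 without Mlkl knockout replicate 1, and was -0.53 on CD-HFD and 0.05 on control diet. Oasl1, an antiviral oligoadenylate synthetase-like gene, stood at 26.8, 11.3, 17.3 and 24.7 CPM against 53.3, 31.6 and 29.7 CPM without overlap (log2 difference -0.92, adjusted p = 0.927). The medians of mitochondrially encoded genes (0.32) and of major urinary proteins (-0.30) were 0.11 and -0.14 without Mlkl knockout replicate 4, and 0.04 and -0.27 without both libraries that stood apart.

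**Figure D4:**
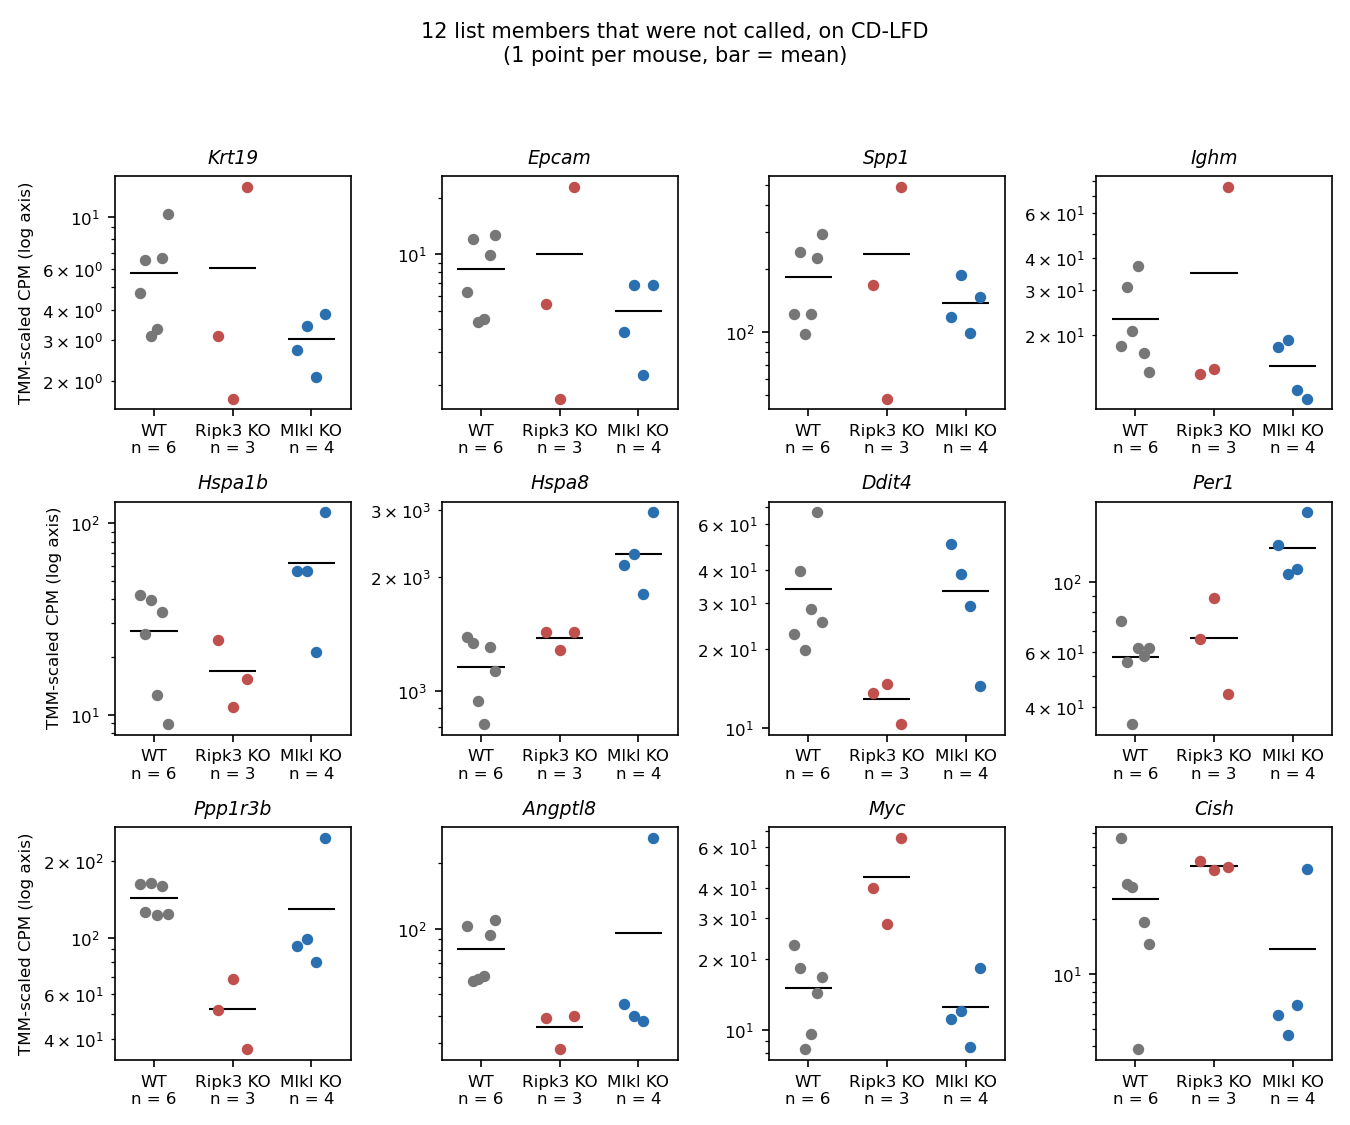
Levels in each CD-LFD liver of 12 list members that were not called, as TMM-scaled CPM on a log axis, with 1 point per mouse and the group mean as a bar. Krt19, Epcam, Spp1 and Ighm are highest in Ripk3 knockout replicate 3, Angptl8 is highest in Mlkl knockout replicate 4, and Hspa8, Per1, Ppp1r3b and Myc do not overlap between the knockouts.

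Single members of other lists had low unadjusted p without passing the adjusted test. Plin3, a coat protein of lipid droplets, stood at 73.0, 63.0, 69.1 and 47.7 CPM in Mlkl knockouts against 104, 90.9 and 103 CPM without overlap (log2 difference -0.65 ± 0.17 (SE), unadjusted p = 0.000311, adjusted p = 0.331), the lowest p of any list gene other than Mlkl and Ripk3. Plin2, the main droplet coat of fatty hepatocytes, stood at 325 to 585 CPM against 566 to 947 CPM with an overlap. Pfkfb3, which makes the activator of glycolytic phosphofructokinase, stood at 46.0, 38.6, 47.5 and 43.6 CPM against 17.9, 19.6 and 20.2 CPM, a log2 difference of 1.19 ± 0.41 (SE; adjusted p = 0.776). It was called (adjusted p = 0.00808) when these 7 libraries alone were fitted. Myc, a growth-promoting transcription factor, stood at 11.2, 12.1, 8.50 and 18.5 CPM against 40.0, 28.2 and 65.6 CPM without overlap (log2 difference -1.84, adjusted p = 0.776), with WT at 8.30 to 23.0 CPM. Ppp1r3b, the main liver subunit that directs protein phosphatase 1 to glycogen, stood at 93.2, 99.3, 80.3 and 247 CPM against 52.1, 68.9 and 36.4 CPM (log2 difference 1.31, adjusted p = 0.698), with WT at 123 to 165 CPM.

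In some genes Mlkl knockout replicate 4 lay far from the other 3 of its group. Angptl8, an insulin-induced inhibitor of lipoprotein lipase, stood at 260 CPM in it and at 37.9 to 45.4 CPM in its group. Cish, a feedback inhibitor of growth hormone signalling, stood at 37.7 CPM in it, at 4.62 to 6.74 CPM in the other 3 Mlkl knockouts, and at 37.3 to 42.1 CPM in Ripk3 knockouts.

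Whether the diet changed the contrast itself was asked with interaction terms. Between CD-LFD and control diet the knockout difference differed in 38 genes (0.256%), lower on CD-LFD for 29 and higher for 9 (72 and 6 of 78 when scaled by library size alone). All 38 were called on control diet, none on CD-LFD, and 37 had opposite signs in the 2 diets. Choosing genes by the difference between these 2 diets favours opposite signs and large values in either, so these are descriptions. The CD-HFD values had no part in that choice. The median size of the difference was 1.64 on the log2 scale on control diet, 0.60 on CD-LFD and 0.18 on CD-HFD. The count fell to 0 when only the 4 groups were fitted (1386 genes at an unadjusted p under 0.05), to 17 with the replicate number as a block, to 3 without both CD-LFD libraries that stood apart, to 2 without Ripk3 knockout CD-LFD replicate 1 and to 12 without replicate 3. It rose to 215 without Mlkl knockout control replicate 6 and to 63 without Ripk3 knockout CD-LFD replicate 2. It was 18 to 25 without any 1 of the 4 Mlkl knockout CD-LFD libraries, of Ripk3 knockout control replicates 1, 2 and 3, or of Mlkl knockout control replicates 1 and 5. The Arntl to Dbp ratio of control-diet livers ran from -5.03 to -3.73 in Mlkl knockouts (median -4.56) and from -7.79 to -5.82 in Ripk3 knockouts (median -6.64) without overlap. On CD-LFD the medians were -6.46 and -6.67 and the ranges overlapped, so the Mlkl knockout values lay apart between the diets and the Ripk3 knockout ranges overlapped. The part of the ratio in these 38 genes was not tested.

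**Figure D5:**
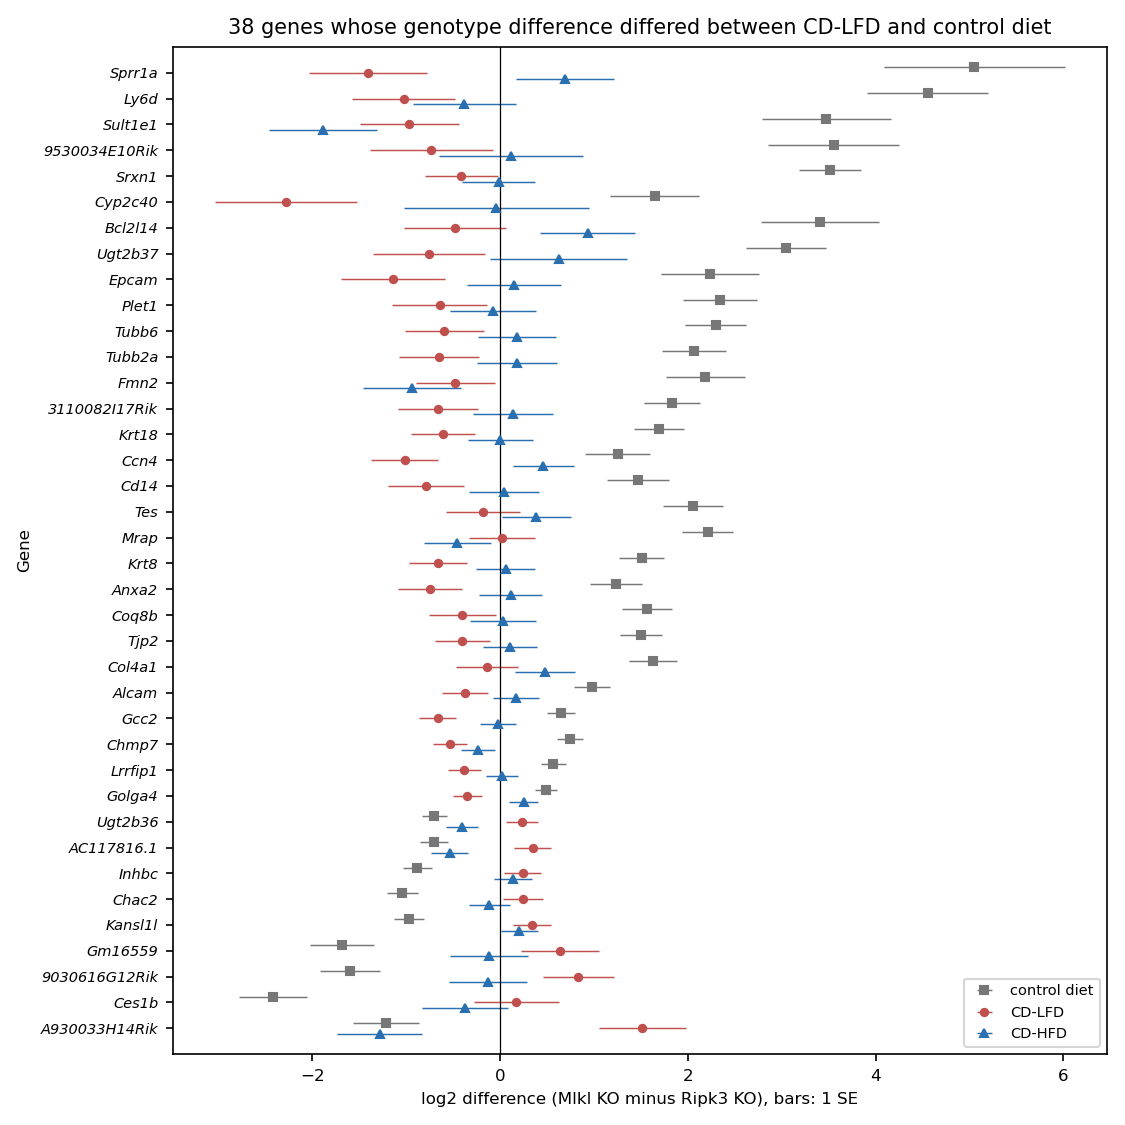
Log2 difference (Mlkl knockout minus Ripk3 knockout) with 1 SE on control diet (grey squares), CD-LFD (red circles) and CD-HFD (blue triangles) for the 38 genes whose difference differed between CD-LFD and control diet. The control-diet values stand away from 0 and most CD-LFD values lie nearer to 0 on the opposite side.

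Srxn1, sulfiredoxin, which repairs oxidised peroxiredoxins, stood at 56.2, 58.0, 70.1 and 77.1 CPM in Mlkl knockouts and at 106, 56.5 and 97.9 CPM in Ripk3 knockouts on CD-LFD (log2 difference -0.41). On control diet it ran from 29.5 to 619 CPM (median 399.7) in Mlkl knockouts and from 23.3 to 38.9 CPM in Ripk3 knockouts (3.51), so that the contrasts differed by -3.93 ± 0.50 (SE; adjusted p = 1.48e-05). Ly6d, a surface antigen of the Ly6 family, differed by -1.03 on CD-LFD and 4.56 on control diet, and the estrogen sulfotransferase Sult1e1 by -0.97 and 3.48. In the other direction Ces1b, a liver carboxylesterase, differed by 0.17 and -2.42, Chac2, of glutathione breakdown, by 0.24 and -1.04, and Kansl1l by 0.34 and -0.97. Epcam, also among the 38, differed by -1.14 on CD-LFD and 2.24 on control diet, but by 0.48 on CD-LFD without Ripk3 knockout replicate 3 and 0.27 without both libraries that stood apart. The AP-1 word TGANTCA, which reads the same on both strands and can lie inside longer antioxidant response elements, occurred in promoters of 5 of the 28 such genes with a promoter (17.9%) and of 6.65% of tested genes. It was 1 of 4 motifs searched in these 28 promoters: the antioxidant response element TGACNNNGC, searched on both strands, was in 17.9% against 16.7% of all, the heat shock words in 17.9% against 14.3% and the E-box in 7.14% against 11.3%. The promoter of Srxn1, the gene with the lowest adjusted p of the 38, holds it at 2 positions, in capitals (GRCm38.p6, chr2:152105274-152105573, plus strand).
Srxn1: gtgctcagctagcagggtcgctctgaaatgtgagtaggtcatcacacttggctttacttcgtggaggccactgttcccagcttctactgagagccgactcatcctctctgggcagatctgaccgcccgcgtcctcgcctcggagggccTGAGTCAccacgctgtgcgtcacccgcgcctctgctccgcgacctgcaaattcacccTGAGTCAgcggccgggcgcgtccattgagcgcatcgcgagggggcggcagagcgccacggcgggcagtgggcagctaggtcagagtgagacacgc

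Between CD-LFD and CD-HFD the test called no gene (0%). At an unadjusted p under 0.05, 424 genes passed, and DESeq2 called 2. The contrast between the knockouts was therefore not detectably different between the choline-deficient diets at this number of mice, which does not show that it was equal: the median SE of this interaction was 0.42 on the log2 scale.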

How the data were processed

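Liver RNA was sequenced from strand-specific libraries, per the labels' protocols. The authors deposited raw read counts per Ensembl gene for 44 libraries, and per the submitters' processing notes the tools were FastQC, STAR, HTSeq, edgeR and limma with GRCm39 (mm39). The annotation release is not given in the sources used here. The reference tables are of GRCm38.p6, so symbols and gene order (GENCODE M21) were joined by gene ID (34373 of 35249 matched), RefSeq promoters by symbol (10926 of 14859 tested symbols), and no coordinate of a counted gene is given. Genes were kept by filterByExpr (minimum count 10). This left 14862 genes, holding 99.8% of the counts. After TMM scaling, all 44 libraries entered 1 edgeR 4.0.16 fit under R 4.3.3, with 1 mean for each of 9 groups and a quasi-likelihood test per contrast, with Benjamini-Hochberg adjustment in each contrast. No label says that libraries of a group came from separate litters or batches, so p-values measure only the spread between these samples. Log2 differences are fitted values, intervals are 95%, and floors of 3 counts cover counting error only. The scripts were tested on simulated data. Alternatives were RLE scaling, library size alone, no count filter, DESeq2 1.42.0, a robust fit, the compared groups alone, a replicate block, leaving out each library and, chosen after the data were seen, leaving out both libraries that stood apart. Named genes were Ripk3, Mlkl, Arntl and Dbp, the 12 largest rises and falls among called genes (mean log2 CPM of at least 1, groups not overlapping, no predicted genes), up to 4 called or 2 uncalled members of each list, 3 genes per direction of each interaction and 5 neighbours on each side of Ripk3 and Mlkl. Further list members were named for their role, with values only. The members and lists were chosen with earlier results of these data known. The values of 1 called gene are not reported here.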

Additional observations from a re-analysis of the deposited data

Results flagged for a closer look

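In the 4 Mlkl knockout CD-LFD libraries, 130 named genes were examined for a library far from the other 3 by Dixon's criterion, and 10 genes met it, each time through replicate 4. Chance flags about 1 in 20 genes, and genes of 1 library are not independent. It was the highest of the group for Per2 (217 CPM), Ppp1r3b (247 CPM), Angptl8 (260 CPM), Cish (37.7 CPM), Tfrc (34.7 CPM) and Ppp1r3e (7.30 CPM). It was the lowest for the gluconeogenic Pck1 (4511 CPM), Mup3 (2554 CPM), the macrophage gene Cd5l (13.4 CPM) and the MHC class II chain Cd74 (98.1 CPM).

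The knockout difference differed between CD-LFD and control diet by the interaction test in 38 genes. Of those named, the CD-LFD minus control-diet value was -5.58 for Ly6d, -4.44 for Sult1e1, -3.93 for Srxn1, 2.59 for Ces1b, 1.31 for Kansl1l and 1.28 for Chac2 on the log2 scale.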

How the results depend on the processing

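On CD-LFD, where 9 genes were called, the count of called genes was 8 to 10 under RLE scaling, library size alone, no count filter, a robust fit, DESeq2, the 7 libraries alone, a fit without the deepest WT library and a replicate block (8), and 6 to 9 with 1 library left out. It was 4 without both libraries that stood apart. The genes were not always the same. Of the 9, 8 were called with DESeq2, with library size alone and with the block, and 7 with the 7 libraries alone. Without Ripk3 knockout replicate 1, and likewise without replicate 2, 6 of the 9 were called. Replicate numbers did not pair the mice: same-number correlations of deviations were 0.0845, -0.14 and -0.12, not every library correlated best with its own number, and the block is given only as an alternative. On control diet the count was 155 with the compared groups alone and 478 to 1803 with 1 library left out, and on CD-HFD 12 with the compared groups alone, 9 with DESeq2 and 3 to 6 with 1 library left out. The 38 genes of the CD-LFD and control-diet interaction became 78 by library size alone, 17 with the replicate block, 0 with the compared groups alone, 113 with DESeq2, 3 without both libraries that stood apart, and 2 to 215 with 1 library left out. For the interaction with CD-HFD the count was 4 with no count filter, 2 with the compared groups alone and 2 with DESeq2. The clock difference was -0.048 by the Arntl to Per3 ratio and -0.0999 to 0.57 with 1 library left out. The cause was not tested. Of 2066 values of 130 named genes under alternatives, 2002 kept direction and call, 20 lost the call, 1 gained it and 43 changed sign, all 43 in genes that were not called. Without both libraries that stood apart the log2 difference was 1.84 for Xist, 0.32 for Spp1, 0.17 for Jchain, 0.51 for Cd24a, -0.017 for Gls2, -0.32 for Wdr59, 0.15 for Thy1, 0.22 for Cx3cr1, 0.19 for Krt19, 0.091 for Hba-a1, 0.13 for Sparc, 0.19 for Ighm and 0.27 for Epcam. By library size alone it was -0.0035 for Aars, -0.031 for Wdr59, -0.0101 for Znrf1 and -0.064 for Khnyn. With the replicate block it was 0.000424 for Zfp1. With 1 library left out it ran from -3.05 to 1.70 for Xist, -1.27 to 0.36 for Spp1, -0.039 to 0.30 for Dbp, -1.32 to 0.49 for Cd24a, -0.16 to 0.089 for Rfwd3, -0.17 to 0.53 for Wdr59, -0.15 to 0.066 for Zfp1, -0.043 to 0.19 for Cideb, -0.58 to 0.31 for Ltb4r2, -0.25 to 0.089 for Ltb4r1, -0.58 to 0.18 for Adcy4, -0.14 to 0.23 for Khnyn, -1.03 to 0.029 for Thy1, -1.01 to 0.24 for Cx3cr1, -1.53 to 0.34 for Krt19, -0.56 to 0.0049 for Hba-a1, -1.61 to 0.091 for Ighm and -1.60 to 0.48 for Epcam. With 3 and 4 mice and a median SE of 0.30 on the log2 scale, changes under 2-fold were beyond reach for many genes.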
